A study of Homo sapiens with 12 samples.

Results

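The genes described here are 9 genes that build the first steps of mucin-type O-glycans, chosen by name: the polypeptide GalNAc transferases GALNT2, GALNT3, GALNT6, GALNT7, GALNT10, GALNT11 and GALNT12, the core 1 synthase C1GALT1 and its chaperone C1GALT1C1. All 9 were found in each of the 4 deposited tables, among 26364 genes per table. RNA was sequenced from 12 cultures of HMLE cells, an immortalised line of human mammary epithelial cells, as 3 biological replicates in each of 4 groups. The cells of one line, HMLE-Twist, carry the phenotype label EMT (the change of epithelial into mesenchymal cells), and the libraries of the other, HMLE-pBp, are titled nonEMT. Each line was given either DMSO as the mock or 0.2 uM salinomycin, a potassium ionophore, for 24 h. All groups were grown in the same medium, and no source used here gives the construct behind each line or says whether a line is 1 clone.

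Mucin-type O-glycosylation starts in the Golgi, where a GALNT enzyme moves GalNAc from UDP-GalNAc onto a serine or threonine of a protein. The GALNT paralogs overlap in the peptides they accept. Some act on bare peptides, and others, GALNT7, GALNT10 and GALNT12 among them, prefer peptides that already carry GalNAc nearby. C1GALT1 then adds galactose to make the core 1 structure, and it is folded in the endoplasmic reticulum only with the help of C1GALT1C1, also called Cosmc; without this step the short Tn antigen stays on the protein.

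The recovered reads on genes ranged from 18.0 to 26.8 Mreads per library. TWIST1 lay between 513 and 1204 FPKM (fragments per kilobase of gene, scaled to the size of the library) in the 6 HMLE-Twist libraries and between 1.86 and 2.58 in the 6 HMLE-pBp libraries. CDH1, the epithelial cadherin, lay at or below 0.157 FPKM in every HMLE-Twist library and between 164 and 190 in the HMLE-pBp libraries. Of 8 leukocyte markers 6 were under 1 FPKM in all libraries of each group, and of 6 endothelial markers 5 were in HMLE-Twist and all 6 in HMLE-pBp. A change in the share of some cells and a change in RNA per cell cannot be told apart in these cultures.

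Promoter sequences of 8 of the 9 genes were matched in RefSeq (GRCh38.p14, 250 bases before to 50 bases after the start site), and GALNT6 was not matched. They were searched on both strands for CAGGTG, which reads as CACCTG from the opposite strand, the E-box that repressors of epithelial genes such as ZEB1 and the SNAI proteins bind. GALNT3 held 2 matches, 1 on each side of the start site, GALNT12 held 1, and the other 6 promoters held none. At least 1 match was held by 20.6% of 27305 promoters of the same length and at least 2 by 3.47%. The 3 promoters below, shown to 30 bases after the start site, are those of the 2 genes with a match and of C1GALT1, the only gene of the set whose level under mock was not lower in HMLE-Twist than in HMLE-pBp; capitals mark the E-box.
GALNT3, chr2:165794218-165794497, minus strand: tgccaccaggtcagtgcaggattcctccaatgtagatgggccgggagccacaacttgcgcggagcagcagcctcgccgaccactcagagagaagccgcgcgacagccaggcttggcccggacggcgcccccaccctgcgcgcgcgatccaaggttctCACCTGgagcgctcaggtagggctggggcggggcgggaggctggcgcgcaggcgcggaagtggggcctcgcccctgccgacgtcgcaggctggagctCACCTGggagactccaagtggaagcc
GALNT12, chr9:98807420-98807699, plus strand: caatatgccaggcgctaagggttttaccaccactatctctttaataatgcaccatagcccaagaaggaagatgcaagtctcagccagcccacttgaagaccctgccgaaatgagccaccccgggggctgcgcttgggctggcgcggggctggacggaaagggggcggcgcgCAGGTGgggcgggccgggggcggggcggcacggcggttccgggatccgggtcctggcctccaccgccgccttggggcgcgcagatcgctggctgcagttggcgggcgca
C1GALT1, chr7:7182294-7182573, plus strand: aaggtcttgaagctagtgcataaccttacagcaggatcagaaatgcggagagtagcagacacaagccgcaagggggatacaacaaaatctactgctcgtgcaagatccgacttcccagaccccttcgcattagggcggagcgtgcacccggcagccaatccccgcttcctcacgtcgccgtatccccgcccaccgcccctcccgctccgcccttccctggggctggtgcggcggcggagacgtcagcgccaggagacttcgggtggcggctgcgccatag

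In the same windows CCAAT, the box bound by NF-Y, was found in GALNT2, GALNT3, GALNT7 and C1GALT1, against 35.7% of all promoters. The other words searched were found in none of the 8. They were, again on both strands, ACGTGGC (in 3.30% of all promoters), TGACGTCA (1.98%) and TGACGTGG (0.795%). A match is a description of the letters and says nothing of binding.

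Under mock GALNT2 had the highest mean of these genes in both lines, while the place of GALNT3 differed. In HMLE-Twist under mock GALNT2 led with a mean of 39.97 ± 5.64 FPKM (SD, n = 3), and GALNT3 stood near the bottom at 1.05 ± 0.206. In HMLE-pBp under mock GALNT2 (114 ± 8.70) and GALNT3 (109 ± 11.4) stood highest. Their ranges overlapped, and GALNT2 was the higher in each of the 3 libraries. Under salinomycin GALNT3 was the highest of the 9 in HMLE-pBp, at 135 ± 14.4 FPKM against 80.4 ± 15.3 for GALNT2, with no overlap.

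**Figure D1:**
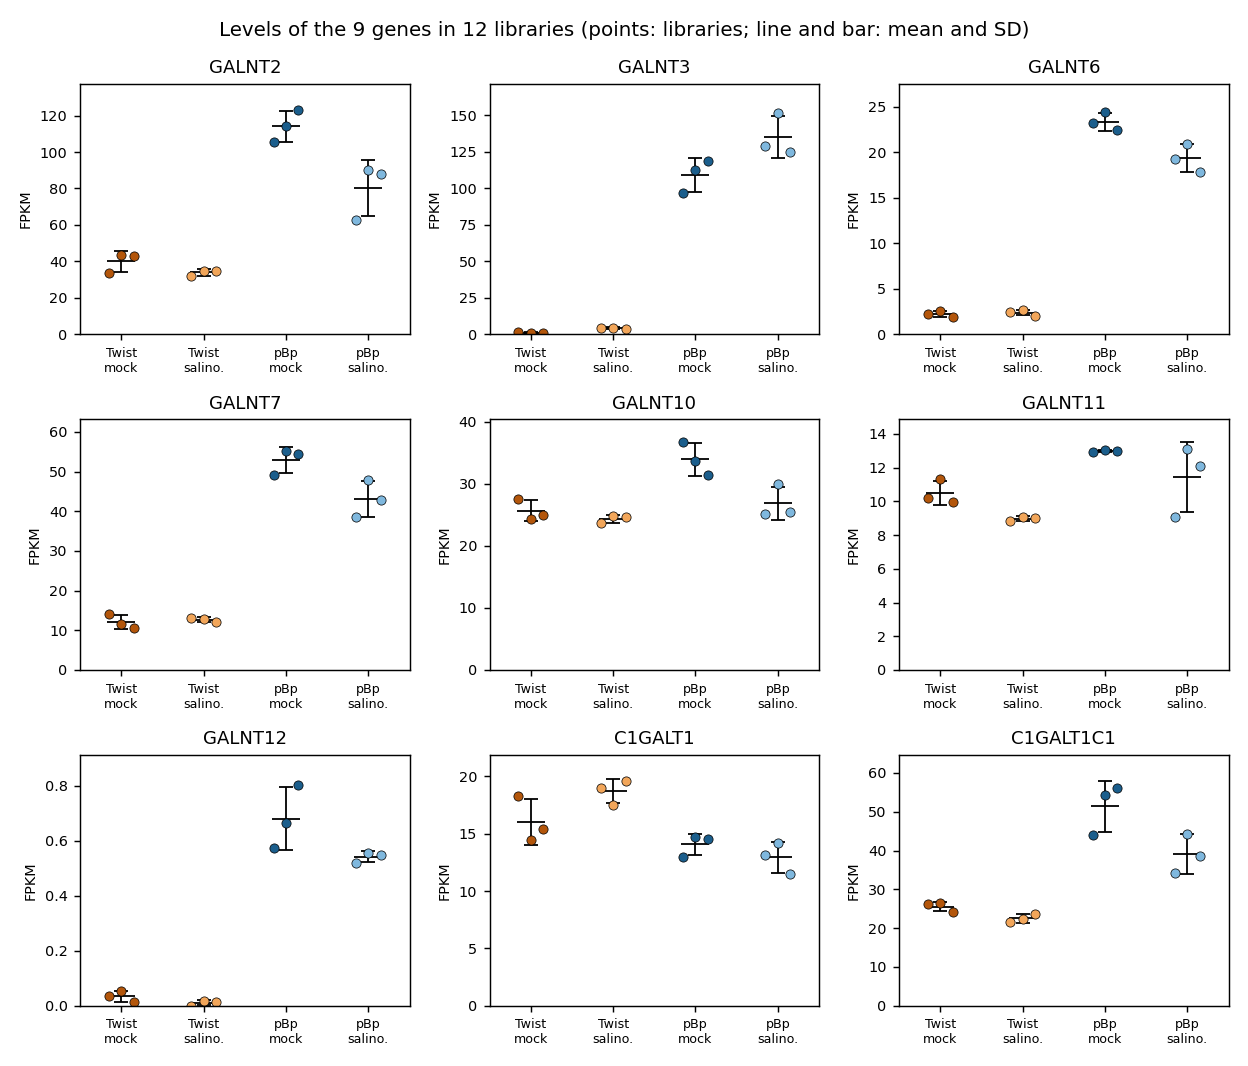
Level of each of the 9 genes in FPKM (y axis, linear, from 0) in the 3 libraries of each group (x axis); points are libraries, and the line and bar give the mean and SD. GALNT2, GALNT3, GALNT6, GALNT7, GALNT12 and C1GALT1C1 were higher in every HMLE-pBp library than in any HMLE-Twist library, while C1GALT1 was not.

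Among the enzymes that act on bare peptides, GALNT2 is a widely expressed transferase with many known substrates. Its level was 33.5, 43.6 and 42.8 FPKM in HMLE-Twist under mock and 31.9, 34.9 and 34.8 under salinomycin. In HMLE-pBp it was 105, 114 and 123 under mock and 62.7, 90.2 and 88.2 under salinomycin. The treated and mock libraries overlapped in HMLE-Twist and were apart in HMLE-pBp, where replicate 1 was the lowest of both groups.

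GALNT3, known for protecting the hormone FGF23 from cleavage, is typical of epithelia. Its level was 1.24, 1.07 and 0.831 FPKM in HMLE-Twist under mock (86, 70 and 75 reads) and 4.45, 4.21 and 3.18 under salinomycin (326, 290 and 263 reads). In HMLE-pBp it was 96.5, 113 and 119 under mock and 129, 152 and 125 under salinomycin. All 4 groups were apart, with every treated library above every mock library of its line.

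GALNT6, which is close to GALNT3 in sequence and is known to modify fibronectin, was at 2.21, 2.50 and 1.89 FPKM in HMLE-Twist under mock and at 2.45, 2.60 and 2.03 under salinomycin. In HMLE-pBp it was at 23.2, 24.4 and 22.4 under mock and at 19.2, 20.9 and 17.8 under salinomycin. The treatments overlapped in HMLE-Twist and were apart in HMLE-pBp. The ratio of GALNT3 to GALNT6, both in FPKM, was 0.476 ± 0.0736 in HMLE-Twist under mock and 1.67 ± 0.133 under salinomycin, so the order of the pair turned over in that line. In HMLE-pBp the ratio was 4.69 ± 0.568 under mock and 6.98 ± 0.262 under salinomycin.

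GALNT11, whose known substrates include NOTCH1, lay between 9.97 and 11.3 FPKM in HMLE-Twist under mock and between 8.82 and 9.10 under salinomycin. In HMLE-pBp it lay between 12.9 and 13.1 under mock and between 9.09 and 13.1 under salinomycin, where replicate 1 was low and touched the range of the treated HMLE-Twist libraries.

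Of the enzymes that prefer substrates already glycosylated, GALNT7 was at 14.1, 11.5 and 10.6 FPKM in HMLE-Twist under mock and at 13.1, 13.0 and 12.0 under salinomycin. In HMLE-pBp it was at 49.2, 55.1 and 54.5 under mock and at 38.6, 47.9 and 42.8 under salinomycin. GALNT10 was at 27.6, 24.4 and 25.1 FPKM in HMLE-Twist under mock and at 23.6, 24.8 and 24.7 under salinomycin. In HMLE-pBp GALNT10 was at 36.7, 33.7 and 31.4 under mock and at 25.1, 29.9 and 25.5 under salinomycin. Both were therefore lower in every treated HMLE-pBp library than in any mock one, and overlapped between treatments in HMLE-Twist.

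GALNT12 was barely detected. It had 2, 3 and 1 reads in the HMLE-Twist mock libraries and 0, 1 and 1 in the treated ones, all at or below 0.0548 FPKM. In HMLE-pBp it had 31, 30 and 49 reads under mock (0.574, 0.665 and 0.804 FPKM) and 29, 28 and 29 under salinomycin (0.521, 0.557 and 0.549 FPKM). It did not pass the filter on low values, so no fold change or test is given for it.

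C1GALT1 was at 18.3, 14.4 and 15.4 FPKM in HMLE-Twist under mock and at 19.0, 17.5 and 19.6 under salinomycin. In HMLE-pBp it was at 13.0, 14.7 and 14.5 under mock and at 13.2, 14.2 and 11.5 under salinomycin. Its chaperone C1GALT1C1 was at 26.2, 26.4 and 24.1 FPKM in HMLE-Twist under mock and at 21.6, 22.3 and 23.7 under salinomycin. In HMLE-pBp C1GALT1C1 was at 43.9, 54.2 and 56.1 under mock and at 34.1, 44.3 and 38.7 under salinomycin. The enzyme lay between 11.5 and 19.6 FPKM over all 12 libraries, while the chaperone was lower in all HMLE-Twist libraries than in any HMLE-pBp library.

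Within HMLE-Twist under mock the order by mean level was GALNT2, GALNT10, C1GALT1C1, C1GALT1, GALNT7, GALNT11, GALNT6, GALNT3 and GALNT12. The ranges of GALNT10 and C1GALT1C1 overlapped, and GALNT10 was the higher in 2 of the 3 libraries. Those of GALNT7 and GALNT11 overlapped as well, although GALNT7 was the higher within each of the 3. Salinomycin left this order as it was except that GALNT3 stood above GALNT6. Within HMLE-pBp under mock the order was GALNT2, GALNT3, GALNT7, C1GALT1C1, GALNT10, GALNT6, C1GALT1, GALNT11 and GALNT12. There the ranges of GALNT2 and GALNT3, of GALNT7 and C1GALT1C1, and of C1GALT1 and GALNT11 overlapped; within a library the first of each pair was the higher in 3, 2 and 3 of the 3. Under salinomycin the order in HMLE-pBp was the same except that GALNT3 stood above GALNT2. The order rests on gene lengths recovered from the tables. With the lengths of the reference annotation C1GALT1C1 changed places with GALNT10 in HMLE-Twist and with GALNT7 in HMLE-pBp, and no other pair was swapped.

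As shares of their summed level, the 7 GALNT genes had a different make-up in each line. Under mock the sum was 91.5 ± 2.81 FPKM in HMLE-Twist and, for HMLE-pBp, 347 ± 20.2. GALNT3 made up 1.15% ± 0.244 of the sum in HMLE-Twist and 31.4% ± 1.496 in HMLE-pBp under mock. The share of GALNT10 was the larger in HMLE-Twist, with 28.1% ± 2.66 there and 9.83% ± 1.37 in HMLE-pBp. Its level was nonetheless lower in HMLE-Twist (25.7 FPKM on average, against 33.9), and the larger share goes with the smaller sum. Other transferases, such as GALNT14 and GALNT18, are not in the sum.

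Salinomycin left the sum at 86.3 ± 2.16 FPKM in HMLE-Twist and at 317 ± 35.2 in HMLE-pBp. The share of GALNT3 was 4.58% ± 0.793 in treated HMLE-Twist and 42.7% ± 2.70 in treated HMLE-pBp. The share of GALNT2 in HMLE-pBp was 32.8% ± 0.834 under mock and 25.3% ± 3.12 under salinomycin. In both lines the share of GALNT3 was higher in every treated library than in any mock library.

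The ratio of C1GALT1C1 to C1GALT1 in FPKM was 1.43, 1.83 and 1.57 in HMLE-Twist under mock and 1.13, 1.27 and 1.21 under salinomycin. In HMLE-pBp it was 3.38, 3.69 and 3.86 under mock and 2.59, 3.12 and 3.37 under salinomycin. The 4 groups did not overlap, although the highest treated and the lowest mock library of HMLE-pBp lay next to each other. No test was made of the ratio.

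**Figure D2:**
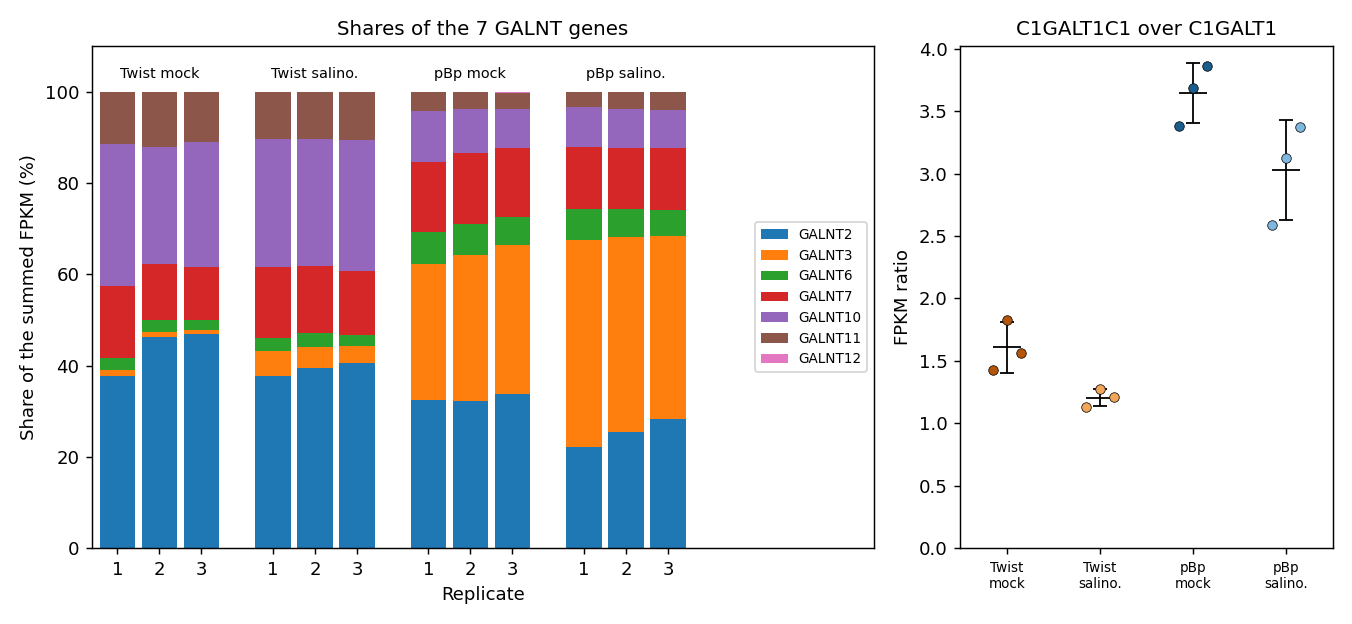
Left, the share in percent of the summed FPKM of the 7 GALNT genes that each gene made up (y axis) in each of the 12 libraries (x axis). Right, the ratio of C1GALT1C1 to C1GALT1 in FPKM by group; points are libraries, the line and bar the mean and SD. GALNT3 made up 1.15% on average in HMLE-Twist under mock and 31.4% in HMLE-pBp under mock, and the ratio on the right was highest in HMLE-pBp under mock.

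The comparison of the lines under mock asks how the cells after the transition differ in these enzymes before any drug. Of the 8 genes tested 7 were lower in HMLE-Twist (limma, adjusted p under 0.05) and none was higher, against 37.3% of all 11750 genes tested called lower, 36.2% called higher and 73.5% called in either direction. The median difference of the 8 in log2(FPKM + 1) was -1.23, and that of all genes -0.0035. The differences ran from near none to very large. GALNT3 differed most, by -5.75 ± 0.126 in log2(FPKM + 1) (standard error, adjusted p = 1.22e-12), and its mean FPKM was 104-fold higher in HMLE-pBp. GALNT6 followed at -2.93 ± 0.0986 (adjusted p = 6.38e-11; FPKM 10.6-fold higher in HMLE-pBp).

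GALNT7 differed by -2.05 ± 0.108 (adjusted p = 4.76e-09), GALNT2 by -1.497 ± 0.139 (9.43e-07) and C1GALT1C1 by -0.97 ± 0.110 (5.78e-06). GALNT10 differed by only -0.39 ± 0.0890 (adjusted p = 0.00174). GALNT11 differed by -0.29 ± 0.109 (adjusted p = 0.0324), and this call was lost when any 1 of 5 libraries was left out (HMLE-Twist mock 1 or 3, or any HMLE-pBp mock library; adjusted p from 0.0645 to 0.0837). C1GALT1 was at 0.17 ± 0.104 (adjusted p = 0.148, 95% interval -0.05 to 0.40) and did not pass the test. The 13 epithelial markers moved with these genes: all 13 were lower in HMLE-Twist, and their summed level was 15.4 to 21.3 FPKM there and 4158 to 4426 in HMLE-pBp under mock. Their part in the result was not tested.

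Under salinomycin the comparison of the lines gave 6 of the 8 genes lower in HMLE-Twist and 1 higher, against 32.0% and 31.4% of all genes (63.4% in either direction). C1GALT1 was the one that was higher, by 0.50 ± 0.104 (limma adjusted p = 0.00106), and its mean FPKM was 1.45 times that of HMLE-pBp. GALNT3 was again the lowest in relative terms, at -4.79 ± 0.126 (adjusted p = 7.00e-12). GALNT10, at -0.13 ± 0.0890, did not pass the test (adjusted p = 0.221, 95% interval -0.32 to 0.06). The call of GALNT11 (-0.30 ± 0.109, adjusted p = 0.0283) was lost without any 1 of 5 libraries, namely any treated HMLE-Twist library or treated HMLE-pBp 2 or 3 (adjusted p from 0.0565 to 0.133), and with levels as TPM (0.0551).

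**Figure D3:**
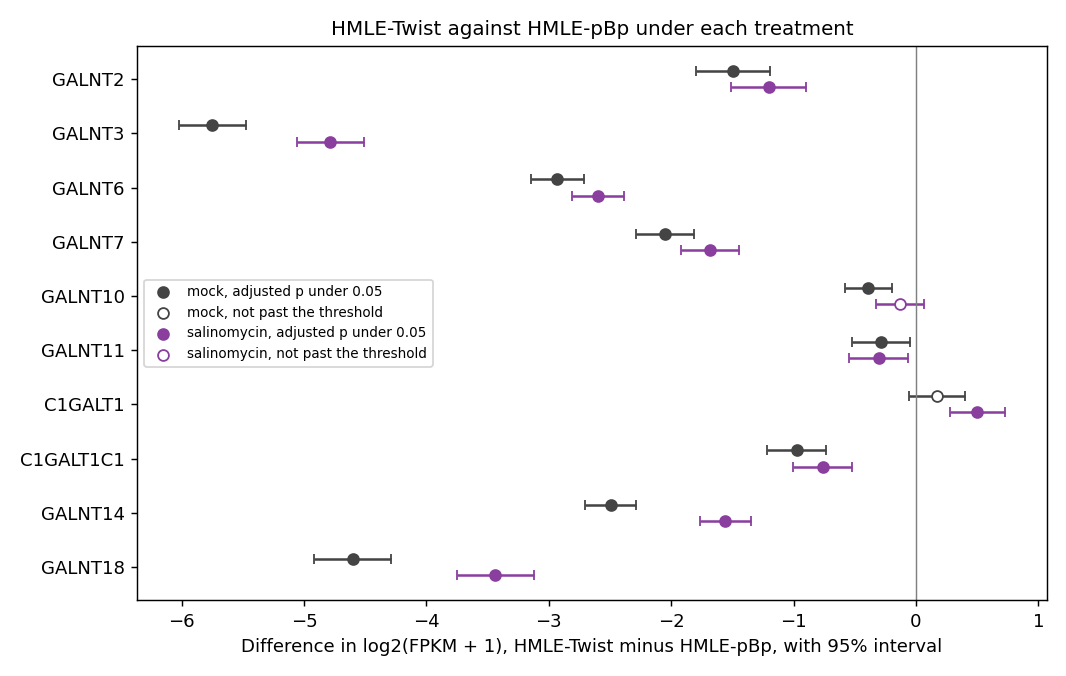
Difference between the lines in log2(FPKM + 1), HMLE-Twist minus HMLE-pBp (x axis), for the 8 tested genes of the set and for GALNT14 and GALNT18 (y axis), under mock (grey) and under salinomycin (purple). Bars are 95% intervals from limma, and filled points have an adjusted p under 0.05. The points run from -5.75 for GALNT3 under mock to 0.50 for C1GALT1 under salinomycin.

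The comparison of salinomycin with mock in HMLE-Twist asks which of these genes respond to the drug in the cells after the transition. GALNT3 was the only one of the 8 that passed the test, and it rose, against 26.4% of all genes called in either direction and 12.8% called higher. It rose by 1.27 ± 0.126 in log2(FPKM + 1) (limma adjusted p = 4.31e-05), and its mean FPKM was 3.77 times that of mock. Because its mock level is near 1 FPKM, the added constant of 1 makes the log2 difference smaller than the ratio of the means; with an added constant of 5 the difference was 0.56 (adjusted p = 0.00116), and with limma-voom on the recovered reads it was 1.93 (6.28e-05). Leaving out any 1 library kept the call (highest adjusted p 4.03e-04).

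The other 7 lay between -0.22 (GALNT2, adjusted p = 0.268) and 0.22 (C1GALT1, 0.151), and the median of the 8 was 0.00006, against -0.01 for all genes. C1GALT1 passed the test once HMLE-Twist mock replicate 1 was left out (0.31, adjusted p = 0.0356). The 95% interval was -0.14 to 0.29 for GALNT6, -0.16 to 0.31 for GALNT7 and -0.27 to 0.12 for GALNT10. Of the 13 epithelial markers 3 were higher and 1 lower under salinomycin in this line, and their summed level was 15.4 to 21.3 FPKM under mock and 37.1 to 54.8 under salinomycin. Most of that sum was LAMB3, a laminin chain, at 10.01 FPKM on average under mock and 36.3 under salinomycin; CLDN1 and ESRP2 were the others that rose, and the keratin KRT5 fell (2.87 and 0.773 FPKM). CDH1 was at 0.0605 and 0.0651 FPKM on average, and of the 13 markers 8 were under 1 FPKM in all mock libraries and 10 in all treated ones. The summed level of 13 mesenchymal markers was 4529 to 5628 FPKM under mock and 5655 to 6410 under salinomycin, and that of the 8 leukocyte markers 23.1 to 27.2 and 37.6 to 42.2, most of it CD68, with PTPRC at or near 0. Of the 13 mesenchymal markers 2 were called higher under salinomycin (FN1 and SPARC) and 3 lower (COL3A1, PDGFRB and FBN1), with a median of 0.03. The part of these markers in the rise of GALNT3 was not tested.

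In HMLE-pBp the same comparison gave 3 of the 8 genes lower under salinomycin and none higher, against 9.20% and 9.48% of all genes (18.7% in either direction). They were GALNT2 (-0.52 ± 0.139, limma adjusted p = 0.0239; mean FPKM 0.704 times that of mock), GALNT10 (-0.33 ± 0.0890, 0.0240; 0.790 times) and C1GALT1C1 (-0.39 ± 0.110, 0.0301; 0.760 times). The median of the 8 was -0.28, and that of all genes -0.01. These calls changed when single libraries were left out. Each was lost without HMLE-pBp mock 2 or salinomycin 1; GALNT2 also without mock 3, GALNT10 also without mock 1 or salinomycin 3, and C1GALT1C1 also without mock 3 or salinomycin 3. The adjusted p then lay between 0.0691 and 0.0976 for GALNT2, 0.0600 and 0.0894 for GALNT10, and 0.0544 and 0.130 for C1GALT1C1. With only the 6 libraries of the line in the fit none of the 3 passed (0.0595, 0.0591 and 0.0833). Marker sums differed as well: the 13 epithelial markers summed to 4158 to 4426 FPKM under mock and 3670 to 4014 under salinomycin, where EPCAM fell and ESRP1 rose. The mesenchymal markers summed to 507 to 533 FPKM under mock and 554 to 654 under salinomycin, and the leukocyte markers to 29.7 to 41.2 and 18.8 to 28.8, with PTPRC at 0 reads. Of the mesenchymal markers 1 was called higher (SPARC) and 1 lower (CDH2). Among the leukocyte markers CD14 fell (23.2 FPKM on average under mock and 11.6 under salinomycin), while CD68 was at 10.8 and 12.7. The part of these markers in the falls of the 3 genes was not tested.

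Replicates with the same number within a line deviated together, and with that pairing in the fit 5 of the 8 genes were lower in HMLE-pBp under salinomycin and 1 was higher, against 19.1% and 17.1% of all genes (36.2% in either direction). GALNT6 (-0.26 ± 0.0986, limma adjusted p = 0.0853 without the pairing) then had an adjusted p of 0.0138, GALNT7 (-0.29 ± 0.108, 0.0777) one of 0.0142, and GALNT3 (0.30 ± 0.126, 0.111) one of 0.0195. Without the pairing GALNT6 (0.0310) and GALNT3 (0.0481) passed with an added constant of 5, and GALNT7 when HMLE-Twist mock 1 was left out (0.0288). GALNT11 (-0.18, adjusted p = 0.255) and C1GALT1 (-0.11, 0.466) passed in neither fit.

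**Figure D4:**
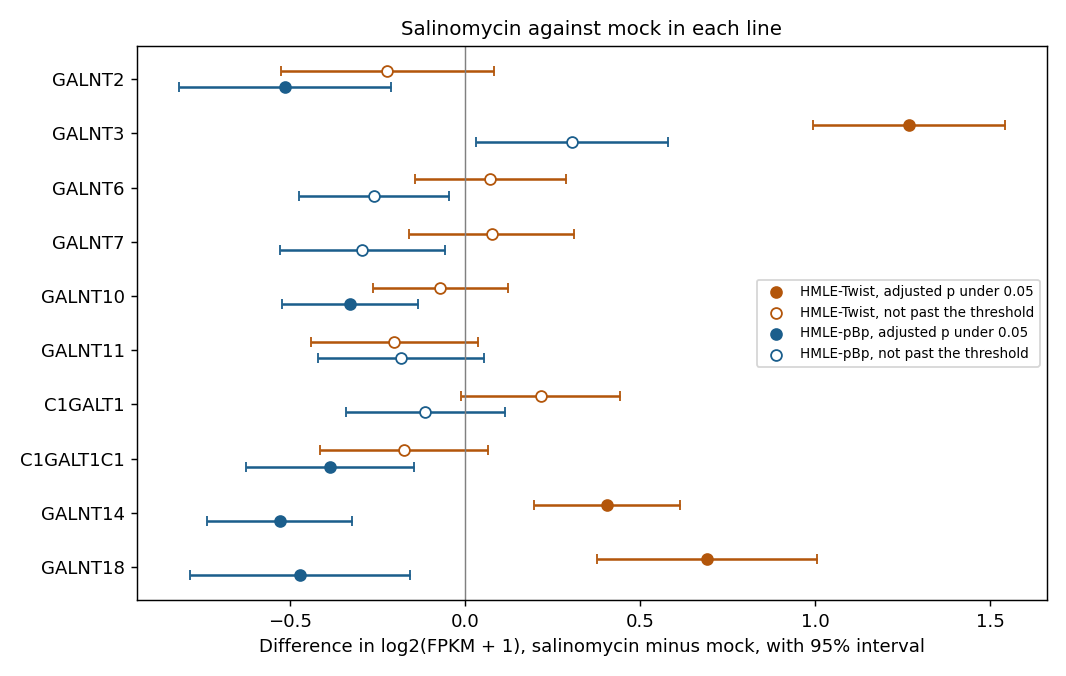
Difference in log2(FPKM + 1), salinomycin minus mock (x axis), for the 8 tested genes of the set and for GALNT14 and GALNT18 (y axis), in HMLE-Twist (brown) and HMLE-pBp (blue). Bars are 95% intervals from limma without pairing, and filled points have an adjusted p under 0.05. GALNT3 in HMLE-Twist stands apart at 1.27, and the 3 filled blue points of the set are GALNT2, GALNT10 and C1GALT1C1.

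The difference of the 2 responses, HMLE-Twist minus HMLE-pBp, was tested directly. GALNT3 was the only one of the 8 genes called, in the higher direction, against 6.98% of all genes called higher (13.6% in either direction). Its response was larger in HMLE-Twist by 0.96 ± 0.178 in log2(FPKM + 1) (limma adjusted p = 0.00603). With an added constant of 5, which weighs the low HMLE-Twist levels less, the difference was 0.27 and did not pass (adjusted p = 0.190), and with limma-voom on the reads it was 1.62 (0.00208). With the pairing within lines 3 of the 8 were called, all higher in HMLE-Twist, against 16.9% of all genes: GALNT6 (0.33, adjusted p = 0.0241; 0.130 without the pairing) and GALNT7 (0.37, 0.0260; 0.125 without) joined GALNT3. Without HMLE-Twist mock replicate 1 GALNT7 (adjusted p = 0.0307) and C1GALT1 (0.0498) passed as well. The median difference of the 8 was 0.31, against -0.0008 for all genes.

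Of 18 other GalNAc transferases listed 14 were in the tables, and 2 passed the filter with settled read numbers, GALNT14 and GALNT18. GALNT14, a paralog near GALNT2 in sequence that is known from work on death receptors, was at 6.85, 6.47 and 6.32 FPKM in HMLE-Twist under mock and at 10.2, 8.42 and 8.47 under salinomycin. In HMLE-pBp GALNT14 was at 40.3, 40.02 and 44.3 under mock and at 25.2, 30.002 and 30.3 under salinomycin. It rose in HMLE-Twist (0.40 ± 0.0957, limma adjusted p = 0.00834) and fell in HMLE-pBp (-0.53 ± 0.0957, 0.00334), and the responses differed by 0.94 ± 0.135 (0.00171).

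GALNT18 was at 0.563, 0.734 and 0.820 FPKM in HMLE-Twist under mock and at 2.09, 1.89 and 1.32 under salinomycin, and in HMLE-pBp at 37.6, 38.4 and 45.2 under mock and at 23.0, 32.3 and 31.9 under salinomycin. It rose in HMLE-Twist (0.69 ± 0.144, adjusted p = 0.00427; 0.112 with an added constant of 5) and fell in HMLE-pBp (-0.47 ± 0.144, 0.0399). The call in HMLE-pBp was lost without any 1 of 6 libraries (HMLE-pBp mock 1, 2 or 3, HMLE-pBp salinomycin 1, HMLE-Twist mock 2 or HMLE-Twist salinomycin 2; adjusted p from 0.0528 to 0.156), and also with an added constant of 0.1 (0.0958), no filter on low values (0.0713), TPM (0.0667) or only the line's 6 libraries (0.0693). The responses of GALNT18 differed by 1.16 ± 0.204 (0.00462). In the main fit both paralogs moved in opposite directions in the lines, with the limits just given for GALNT18. GALNT3 rose in HMLE-Twist, while in HMLE-pBp it was at 0.30 and did not pass without the pairing (limma adjusted p = 0.111).

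The genes that supply the sugar donors were tested as a list of 14, of which all passed the filter. In HMLE-Twist 7 rose and 1 fell with salinomycin (median 0.28 in log2(FPKM + 1)), against 12.8% of all genes called higher and 13.6% lower. With the pairing 8 rose and 2 fell, against 19.6% and 20.9% of all genes. In HMLE-pBp 4 rose and none fell (median 0.29), against 9.48% and 9.20% of all genes, and with the pairing 8 rose, against 17.1%. GFPT1, which opens the hexosamine pathway, rose by 1.26 ± 0.146 in HMLE-Twist (limma adjusted p = 1.10e-04) and by 1.33 ± 0.146 in HMLE-pBp (1.75e-04). PGM3, a later enzyme of that pathway, rose by 1.03 ± 0.0859 (1.86e-05) and 1.20 ± 0.0859 (7.64e-06). SLC35A2, the carrier that brings UDP-galactose into the Golgi, rose by 1.25 ± 0.151 (1.32e-04) and 0.67 ± 0.151 (0.0102). UGP2, which makes UDP-glucose, fell in HMLE-Twist by 0.32 (adjusted p = 0.00992). Under mock 6 of the 14 were higher in HMLE-Twist, led by GFPT2 (1.98), UAP1L1 (1.78) and GALK1 (1.49), and 2 were lower, SLC35A2 (-1.32) and SLC35A3 (-0.64). Of all genes 36.2% were higher and 37.3% lower, so the share of the list called higher was near that of all genes. GFPT2 averaged 0.335 FPKM in HMLE-pBp under mock and passed the filter only through other groups, which favours a large line difference.

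Of 15 genes that branch or extend the cores 8 were tested. In HMLE-Twist 2 rose with salinomycin, B4GALT5 (1.096 ± 0.108, limma adjusted p = 4.31e-05) and B3GNT5 (0.66 ± 0.126, 0.00261), both known mainly for building glycolipids, and GCNT1, the core 2 enzyme, fell (-0.51 ± 0.128, 0.0117); of all genes 12.8% rose and 13.6% fell. In HMLE-pBp B3GNT3, the enzyme that extends core 1, fell (-0.24 ± 0.0675, 0.0313; 9.20% of all genes fell; with the pairing 1 gene of the list was higher and 2 were lower, against 17.1% and 19.1% of all genes). That call of B3GNT3 was lost without any 1 of the HMLE-pBp libraries or HMLE-Twist salinomycin 3 (adjusted p from 0.0523 to 0.123), with an added constant of 0.1 (0.267), as TPM (0.0956) and with limma-voom (0.0994). In HMLE-Twist the median of the 8 was 0.08, and in HMLE-pBp it was -0.0041. Under mock 6 of the 8 were lower in HMLE-Twist, with B3GNT3 (-4.29), B4GALT5 (-1.94) and B4GALT1 (-1.54) in front, and 2 were higher, CHST2 (4.07) and GCNT1 (2.04), against 37.3% of all genes lower and 36.2% higher. B3GNT3 averaged 0.0122 FPKM in HMLE-Twist under mock, and CHST2 0.0422 in HMLE-pBp under mock. Each passed the filter on low values only through other groups, so the filter itself favoured a large line difference for them.

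Of 10 genes that sialylate O-glycans 7 were tested. ST3GAL1, which caps core 1 with sialic acid, rose in HMLE-Twist (0.83 ± 0.110, limma adjusted p = 2.63e-04), and ST6GALNAC6 fell (-0.41 ± 0.114, 0.0190; lost without HMLE-Twist mock 2, mock 3 or salinomycin 1, at 0.0560 to 0.0801, and with only the line's 6 libraries, at 0.0775). These were 1 of the 7 in each direction, against 12.8% of all genes higher and 13.6% lower; with the pairing 2 of the 7 fell, against 20.9%. In HMLE-pBp ST6GALNAC2 rose (0.98 ± 0.119, 3.16e-04), while ST6GALNAC4 (-0.89 ± 0.245, 0.0259) and ST3GAL4 (-0.46 ± 0.106, 0.0117) fell, against 9.48% of all genes higher and 9.20% lower; with the pairing 4 of the 7 were lower there, against 19.1%. ST6GALNAC4 lost its call without HMLE-pBp mock 2, mock 3 or salinomycin 1 (0.0665 to 0.0997), with no filter on low values (0.0563) and with only the line's 6 libraries (0.0742), and ST3GAL4 without HMLE-pBp mock 3 (0.0597). In HMLE-Twist the median of the 7 was 0.09, and in HMLE-pBp it was -0.24. Under mock 4 of the 7 were lower in HMLE-Twist, led by ST6GALNAC2 (-3.15), ST3GAL4 (-1.55) and ST3GAL1 (-1.34), and ST6GALNAC6 was higher (1.16), against 37.3% of all genes lower and 36.2% higher. ST6GALNAC2 averaged 0.229 FPKM in HMLE-Twist under mock and passed the filter only through other groups, which favours a large line difference.

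Of 21 mucins and other known carriers of O-glycans 8 were tested, and 4 rose in HMLE-Twist with salinomycin and none fell (median 0.45), against 12.8% and 13.6% of all genes; with the pairing 4 rose and 1 fell, against 19.6% and 20.9%. The 3 with the largest rise were PODXL (1.02 ± 0.224, limma adjusted p = 0.00563; 0.0519 with only the line's 6 libraries), LRP1 (0.78 ± 0.172, 0.00565) and CD44 (0.76 ± 0.128, 0.00120). The length recovered for PODXL was 2.84 times the nearest reference length, and a wrong length would shift its treated against its mock level. In HMLE-pBp 0 of the 8 passed the limma test in either direction (median -0.06), 2 had an unadjusted p under 0.05, and 0 passed with limma-voom. With the pairing 2 of them rose and 3 fell in HMLE-pBp, against 17.1% and 19.1% of all genes. Under mock 4 of the 8 were lower in HMLE-Twist, led by PDPN (-3.71), NOTCH1 (-2.82) and CD44 (-1.75), and 3 were higher, namely FN1 (1.69), LRP1 (0.96) and PODXL (0.60; lost without HMLE-Twist mock 1, HMLE-pBp mock 2 or mock 3, at 0.0577 to 0.130, and with no filter on low values, at 0.0561). Both shares were near those of all genes, 37.3% lower and 36.2% higher. PDPN and NOTCH1 averaged 0.0193 and 0.627 FPKM in HMLE-Twist under mock. Both passed the filter only through other groups, which favours a large line difference.

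GALNT3 had both the largest difference of responses and the largest line difference under mock among the 8 genes. By the root mean square distance between the 4 centred group means of log2(FPKM + 1), the genes most like it among 11742 others tested were ADGRG1 (distance 0.27), an adhesion receptor, GJB2 (0.31), a gap junction protein, and TSPAN1 (0.37), a tetraspanin. Mean levels in HMLE-Twist were 0.433 FPKM under mock and 1.13 under salinomycin for ADGRG1, and 0.718 and 5.08 for GJB2. In HMLE-pBp they were 72.2 and 80.7 for ADGRG1, and 71.8 and 122 for GJB2. TSPAN1 went from 1.91 to 2.44 in HMLE-Twist and from 118 to 142 in HMLE-pBp. These genes were chosen for their likeness over the same 4 groups, so no test is given for them.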

How the data were processed

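The authors deposited 1 table per group: FPKM for the mock groups, with size factors set within each table, and log2 values with shrunken spread for the salinomycin groups. Per the submitters' processing notes DESeq2 (version string 1.1.0) and build hg19 were used; the aligner, counting program and annotation are stated in no source used here. Whole reads were recovered by inverting both scalings: 99.98% (HMLE-Twist) and 99.99% (HMLE-pBp) of mock values, and 98.57% and 96.10% of those under salinomycin, lay within 0.1 of a whole read. Of the genes 1627 whose read multiple had a posterior under 95% were left out. The authors' FPKM were replaced by FPKM rebuilt from the recovered reads and lengths, with size factors over all 12 libraries. Genes with at least 1 FPKM in at least 3 libraries (11750) were fitted as log2(FPKM + 1) in all 12 libraries with limma 3.58.1 (R 4.3.3, trended prior), and p-values were adjusted by Benjamini and Hochberg over all genes, at 0.05. Scripts were tested on simulated data. Same-numbered mock and salinomycin libraries of a line deviated together (correlations 0.43 to 0.72 in HMLE-Twist, 0.22 to 0.59 in HMLE-pBp), so the fit paired within lines is given where it changes a member's call. For the lists it is given for part of the comparisons only. Across lines the correlations under mock were 0.26, 0.07 and 0.56 for replicates 1, 2 and 3. Under salinomycin they were 0.28, 0.04 and 0.59. Libraries numbered 1 and 3 therefore deviated together across lines as well, and the shared deviation was not confined to a line. 1 item is not reported here. The members and lists were chosen with earlier results of these data known. Named were all members, other tested transferases, up to 3 called genes per list, direction and comparison, and the 3 genes most like the member that differed most.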

Additional observations from a re-analysis of the deposited data

Results flagged for a closer look

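The direct test of the difference of responses (HMLE-Twist minus HMLE-pBp in log2(FPKM + 1), limma) called 13.6% of all genes in either direction. Genes of the lists had been named above for large called changes in the same data. Marker genes and the genes most like GALNT3 are left out here. At least 9 genes named above were called by this test. Among the transferases these were GALNT3 at 0.96 (adjusted p = 0.00603), GALNT14 at 0.94 (0.00171) and GALNT18 at 1.16 (0.00462). GALNT3 rose in HMLE-Twist and did not pass in HMLE-pBp in the main fit (0.30, adjusted p = 0.111). In HMLE-pBp it did pass with the pairing within lines (limma adjusted p = 0.0195) and with an added constant of 5 (0.0481). With that constant its difference of responses was 0.27 and did not pass (limma adjusted p = 0.190). GALNT14 and GALNT18 rose in HMLE-Twist and fell in HMLE-pBp in the main fit. For GALNT18 the fall was lost without any 1 of 6 libraries (limma adjusted p from 0.0528 to 0.156). Its rise was lost with an added constant of 5 (limma adjusted p = 0.112). Among the genes that extend or cap the glycans, B4GALT5 differed by 1.02 (0.00205), ST3GAL1 by 0.87 (0.00544) and ST6GALNAC2 by -0.89 (0.00700). ST6GALNAC2, whose mean in HMLE-Twist under mock was 0.229 FPKM, lost this call with an added constant of 0.1 (-0.65, 0.309), as TPM (-0.81, 0.0744) and with limma-voom (-0.42, 0.636). UGP2 of the donor supply differed by -0.55 (0.00937). Among the carriers PODXL differed by 1.68 (0.00690) and CD44 by 0.76 (0.0199). The value of PODXL rests on a recovered length 2.84 times the nearest reference length. The call of CD44 was lost without HMLE-Twist salinomycin 1 or 3 or HMLE-pBp mock 2 or 3 (adjusted p from 0.0521 to 0.0554).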

How the results depend on the processing

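Depth limits the low genes: GALNT3 had 70 to 86 reads per HMLE-Twist mock library and GALNT12 at most 3 per HMLE-Twist library. The tests with edgeR and DESeq2 that had been planned were not run, since the deposited units are not counts; limma-voom on the recovered reads was added after the data were seen, as was the pairing within lines. With the replicate block across all 4 groups 3909 genes were called for salinomycin in HMLE-pBp (2195 without) and 3421 for the difference of responses (1600 without, 2 members higher). With the block within each line these were 4256 and 3805, and 4756 in HMLE-Twist (3104 without); members called were then 5 lower and 1 higher in HMLE-pBp and 3 higher for the difference. The block changed no member's call in HMLE-Twist or between the lines. With a pseudocount of 5 there was 1 member higher in HMLE-pBp and 0 for the difference. With only the line's 6 libraries 0 members were lower in HMLE-pBp. Reference lengths kept 35 of 36 pairs in order in each group. Leaving out each library gave 1 to 2 members higher in HMLE-Twist, 0 to 4 lower in HMLE-pBp and 1 to 3 higher for the difference, with 1111 to 3076 genes called in HMLE-pBp and 754 to 2345 for the difference. Signs turned only for values near 0: GALNT11 for the difference (-0.02; 0.00038 with TPM, -0.162 to 0.0791 without 1 library) and GALNT7 in HMLE-Twist (0.08; -0.0061, without mock 3, to 0.185, without mock 1). Of 920 values of single members under an alternative 876 kept their direction and side of the threshold.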

Other observations

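GALNT1 and GALNT5, also polypeptide GalNAc transferases, were left out of the tests because it was not settled whether their mock reads need a multiple, which would shift treated against mock in both lines alike. Their ratios between the lines do not depend on that multiple. Normalised reads of GALNT5 were 7.54-fold higher in HMLE-pBp under mock and 1.99-fold higher under salinomycin, so the ratio of treated to mock was 3.80 times as large in HMLE-Twist as in HMLE-pBp. With no gene left out and the likeliest multiple taken, the difference of responses of GALNT5 in log2(FPKM + 1) was 1.69 ± 0.204 (limma adjusted p = 5.32e-04), and that of GALNT1 was -0.30 ± 0.205 (0.345). Because of the added constant of 1, these differences do depend on the multiple. The posterior of the multiple taken was 52.6% for GALNT5 and 70.7% for GALNT1. GALNT1 was 2.27-fold higher in HMLE-pBp under mock and 2.83-fold higher under salinomycin.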
